A study of Canis lupus familiaris with 6 samples.

Results

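The small subunit of the calpains, CAPNS1, was examined together with the catalytic calpains CAPN1, CAPN2, CAPN5, CAPN7 and CAPN10 and with the calpain inhibitor calpastatin, CAST. A probe was taken as a member when it was no control and its gene name in the scanner output was one of these 7 symbols, which gave 7 of 13039 gene symbols and 17 of 43603 probes. The group was selected on measured values, the co-culture over monoculture ratios of the bright CAPNS1 probes, so the ratios of all 17 probes are given as a description, without a test. The levels of the genes in the 3 cell lines were not used to pick them and were tested. The error of that test is the spread of the same ratios between lines, so its p-values are not free of the selection.

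Dog mammary tumor cells of 3 established lines were studied. P114 derives from an anaplastic cancer, CMT-U27 from a simple carcinoma and CMT-U309 from a spindle cell tumor, and all were kept in the same serum-supplemented RPMI medium. In the co-culture group each line shared its medium with myeloid-derived suppressor cells (MDSCs), immature myeloid cells that were sorted from the blood of healthy dogs and placed in tissue culture inserts above the tumor cells. In the monoculture group the same line grew without MDSCs. The sample descriptions give at least 72 h of co-culture and the methods a shorter time. The RNA of one group carried the red dye Cy5 and that of the other the green dye Cy3 on the same Agilent canine oligonucleotide array. Each line was hybridized on 2 arrays with the dyes exchanged, and because these carry the same 2 RNA samples they were counted as 1 replicate, so n = 3 cell lines. No source says how many cultures were pooled, and in RNA from whole wells fewer cells of a type and less RNA per cell cannot be told apart.

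Calpains are calcium-dependent cysteine proteases of the cytoplasm that cut their substrates at few sites and so modify rather than degrade them. CAPN1 (μ-calpain) and CAPN2 (m-calpain) each work as a pair with the small subunit CAPNS1, which carries no protease domain and binds calcium through EF-hand motifs, while CAST is a specific inhibitor of these pairs. In migrating and spreading cells they are known for cutting focal adhesion and cytoskeletal proteins. CAPN5, CAPN7 and CAPN10 lack the EF-hand domain through which the classical calpains hold CAPNS1.

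The probes are 60 bases long, and both upstream CAPNS1 probes and 1 probe of each catalytic partner, all with an open reading frame, are shown because the comparison turns on where along the transcript a probe sits. Capitals mark codons that read like the start of an EF-hand calcium-binding loop. The start was searched as aspartate, any residue, aspartate, asparagine or serine, any residue, an acidic or small polar residue (aspartate, glutamate, asparagine, serine, threonine or glycine), glycine, any residue, and isoleucine, leucine, valine or methionine. In the printed strand only, in frames without a stop codon, 0.0826% of all 43603 probes hold it, both upstream CAPNS1 probes among them. Coordinates are those of the files on canFam2, and all 4 probes lie on the minus strand. The first CAPNS1 probe lies at chr1:119462318-119462468 and the other at chr1:119459176-119459413, the CAPN1 probe at chr18:55032389-55032448 and the CAPN2 probe at chr7:43305088-43305380.
CAPNS1 probe 1: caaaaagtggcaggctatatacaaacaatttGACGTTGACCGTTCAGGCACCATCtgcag
CAPNS1 probe 2: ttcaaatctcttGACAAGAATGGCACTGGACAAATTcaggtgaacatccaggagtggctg
CAPN1 probe 1: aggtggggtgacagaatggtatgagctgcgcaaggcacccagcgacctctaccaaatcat
CAPN2 probe 2: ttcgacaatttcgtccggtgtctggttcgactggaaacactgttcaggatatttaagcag
Both CAPNS1 probes cover more genome than their own length, 151 and 238 bases, as probes across an exon junction do, and they start at bases 347 and 561 of the transcript the files assign them to. Another CAPNS1 probe, probe 3, starts at base 1098 of that transcript, lies downstream at chr1:119458639-119458698 on the same strand and holds the polyadenylation signal AATAAA 4 bases before its end. These letters occur in the printed strand of 8.67% of all probes. Probes are numbered from the 5′ to the 3′ end of each gene, by the lower genome coordinate of each probe.

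Signal over background varied between channels, with 53.0% to 81.0% of spots well above background as the scanning software flags them, and no spot was saturated. The P114 arrays stand apart. Turned to co-culture over monoculture, the log2 ratios of a dye-swap pair over 40706 probes correlated at -0.39 for P114, against 0.26 for CMT-U27 and -0.09 for CMT-U309, and over the 20603 probes well above background in all 12 channels at -0.14, 0.44 and 0.24. Values that rest on P114 are therefore also given without it. Taken as a sum, epithelial markers were brightest in CMT-U27, where the signals of 4 epithelial marker genes summed to between 136678 and 161385. EPCAM, KRT19 and CDH1 were brightest there, but the brightest KRT14 probe read 2127 in CMT-U27, 3718 in P114 and 6141 in CMT-U309. Another KRT14 probe had the same order, and the dimmest was highest in CMT-U27. Mesenchymal markers were brightest in P114 and CMT-U309, where the signals of 5 genes summed to between 432101 and 803759.

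CAPNS1 was higher in co-culture in all 3 lines at both upstream probes, and much less so at the downstream probe. At probe 1 the scaled signal intensity in P114 was 2472 and 1901 in monoculture and 3618 and 3211 in co-culture. In CMT-U27 it was 875 and 909 in monoculture and 2312 and 1521 in co-culture, and in CMT-U309 it was 1487 and 2378 in monoculture and 3173 and 4038 in co-culture. Within each line both co-culture values lay above both monoculture values, although the lines overlapped with each other. At probe 2 the monoculture signals were 1832 and 1132 in P114, 723 and 659 in CMT-U27, and 1196 and 1579 for the CMT-U309 arrays. The co-culture signals at probe 2 were 2911 and 2407 in P114, 1799 and 1213 in CMT-U27 and 1709 and 3543 in CMT-U309, again above the same line's monoculture values.

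**Figure D1:**
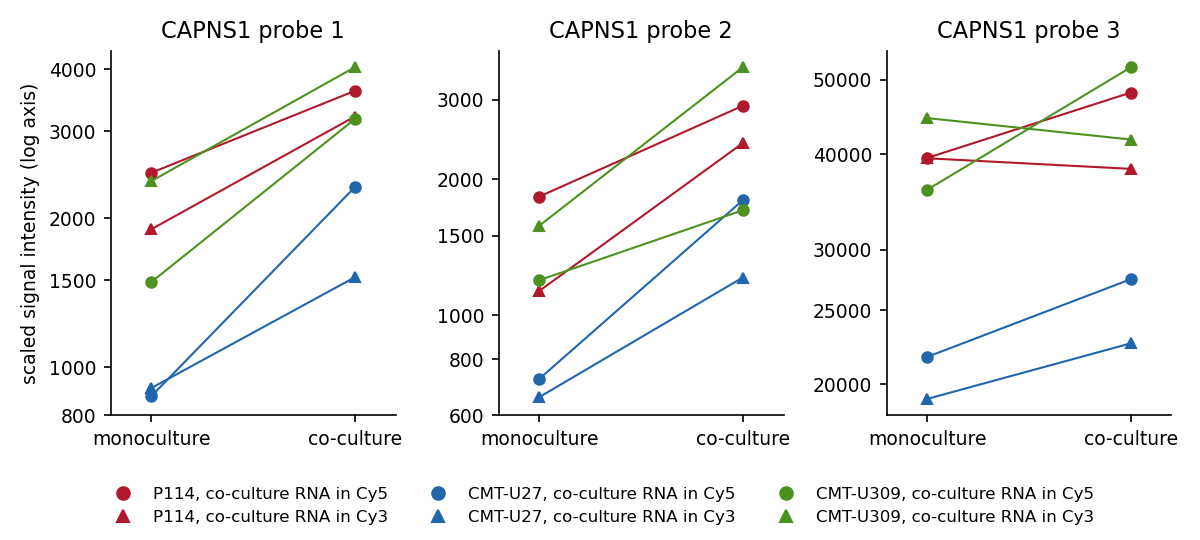
Scaled signal intensity (log axis, a different range in each panel) of the 3 CAPNS1 probes in monoculture and co-culture. Each line joins the 2 channels of 1 array, colors stand for cell lines and marker shapes for the dye of the co-culture RNA. All 6 lines go up at probes 1 and 2, and at probe 3 those of P114 and CMT-U309 with co-culture RNA in Cy3 go slightly down.

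As log2 ratios of co-culture over monoculture, probe 1 read 0.55 and 0.76 on the P114 arrays, 1.40 and 0.74 on the CMT-U27 arrays and 1.09 and 0.76 on the CMT-U309 arrays, with the array that carried co-culture RNA in Cy5 (the Cy5 array of a line) first and its dye-swap (the Cy3 array) after it. Its mean over the lines was 0.88 (SD = 0.21, n = 3), a 1.85-fold difference. Probe 2 read 0.67 and 1.09 in P114, 1.31 and 0.88 in CMT-U27 and 0.51 and 1.17 in CMT-U309, with a mean of 0.94 (SD = 0.14, n = 3) or 1.92-fold. Both probes were above 0 on 6 of 6 arrays and in both dye orientations. Probe 3 read 0.28 and -0.05 in P114, 0.34 and 0.24 in CMT-U27 and 0.53 and -0.09 in CMT-U309. Its mean was 0.21 (SD = 0.09, n = 3), above 0 on 4 of 6 arrays. Among all probes this bright (well above background in the 12 channels), 99.8% had a lower mean ratio than probe 1, 99.9% a lower one than probe 2 and 83.3% a lower one than probe 3. Probes 1 and 2 were picked for their ratios, so their ranks are a description only.

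The upstream and downstream ends of CAPNS1 therefore gave different ratios on the same arrays. Averaged over probes 1 and 2, the upstream ratio was 0.61 and 0.92 for P114, 1.36 and 0.81 for CMT-U27 and 0.80 and 0.96 for CMT-U309. It exceeded the ratio of probe 3 on 6 of 6 arrays, by 0.27 to 1.06 on the log2 scale and by 0.70 on average. For comparison, 2513 transcripts with several probes well above background in all channels were read the same way, as the ratio of the most 5′ probe minus that of the most 3′ probe. Their median difference over the lines was 0.03 (quartiles -0.08 and 0.16), and the difference of CAPNS1 between probes 1 and 3 was 0.68, larger than that of 99.8% of these transcripts. Over the 931 transcripts whose probes lie 300 to 1000 bases apart the median was 0.05, and 99.6% were below CAPNS1. CAPNS1 was picked for the rise of its upstream probes and the other transcripts were not, so nothing is read from either rank. The medians of single arrays ran from -0.04 to 0.09, and 57.5% of transcripts had a higher ratio at the 5′ probe. Whether position along the transcript has a part in the difference between the CAPNS1 probes was not tested.

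**Figure D2:**
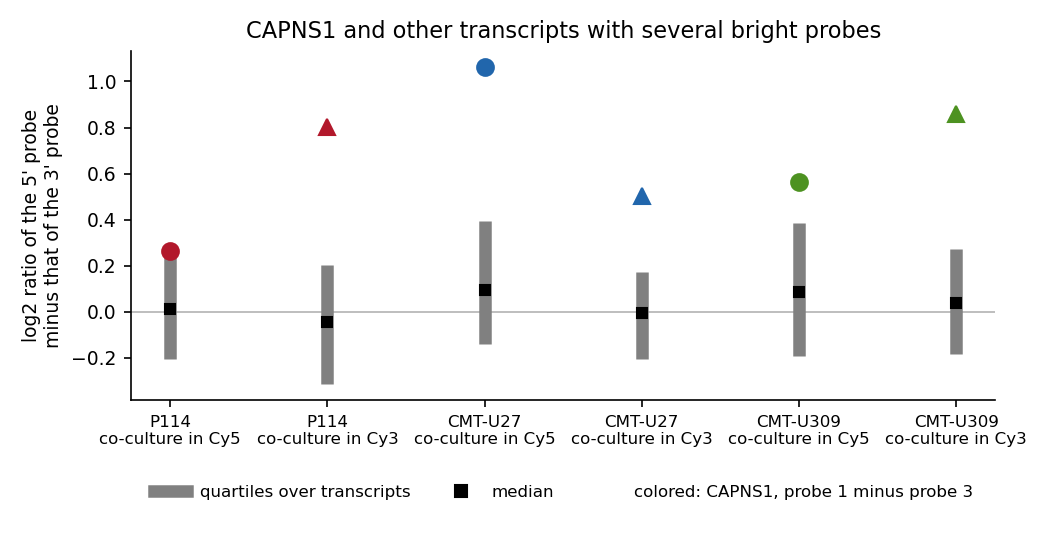
Log2 ratio of the most 5′ probe minus that of the most 3′ probe of a transcript on each array. Grey bars are the quartiles and black squares the median over transcripts with several probes well above background, and colored points are CAPNS1 (probe 1 minus probe 3). CAPNS1 lies above the upper quartile on all 6 arrays, from 0.27 on the Cy5 array of P114 to 1.06 on the Cy5 array of CMT-U27.

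The catalytic partners of CAPNS1 did not share the co-culture ratio of its upstream probes. The mean of CAPNS1 probe 3, at 0.21, lay between those of CAPN2 probe 2 and CAPN1 probe 2 given below. CAPN2, the m-calpain subunit, was bright at 3 probes, and their mean log2 ratios were 0.09 (SD = 0.22), 0.12 (SD = 0.25) and 0.03 (SD = 0.22, all n = 3). The mean over the CAPN2 probes read 0.10 and -0.10 on the P114 arrays, 0.25 and 0.25 on the CMT-U27 arrays and -0.05 and 0.02 on the CMT-U309 arrays. CAPN2 was thus slightly higher in co-culture in CMT-U27 and on either side of 0 in the other lines. Without P114 the means of the CAPN2 probes were 0.21, 0.22 and -0.07. CAPN1, the μ-calpain subunit, had probes that disagreed. Probe 2 read 0.67 and 0.43 in P114, 1.25 and -0.27 in CMT-U27 and 0.19 and -0.41 in CMT-U309, with a mean of 0.31 (SD = 0.37, n = 3), or 0.19 without P114. CAPN1 probe 1 read -2.11 and -0.46 in P114, 0.06 and 0.56 in CMT-U27 and 0.14 and -0.35 in CMT-U309, with a mean of -0.36 (SD = 0.82, n = 3). Without P114 the mean of probe 1 was 0.10, on the other side of 0. The value of -2.11 came from the Cy5 array of P114, where the scaled signal was 46.6 in co-culture and 201 in monoculture.

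Read array by array, the upstream CAPNS1 ratio lay above the mean ratio of CAPN1 on 6 of 6 arrays, by 0.64 to 1.35 on the log2 scale. It exceeded that of CAPN2 by 0.51 to 1.11 and that of CAST by 0.36 to 1.37, also on 6 of 6 arrays. These differences share the contrast by which CAPNS1 was picked and carry no test. They hold for the upstream probes only, since CAPNS1 probe 3 read below each of these means on some arrays.

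The calpains that do not pair with CAPNS1 showed no common direction. CAPN5 had 1 dim probe, flagged well above background in 3 co-culture and 5 monoculture channels of 6 each, with ratios from -1.33 to 0.95 and a mean of 0.02 (SD = 0.66, n = 3), or -0.27 without P114. CAPN7 was near 0 at both probes, with means of -0.13 (SD = 0.24) and 0.15 (SD = 0.25, both n = 3), and a range over both probes of -1.003 to 0.65. Without P114 its means were 0.00 and 0.29. CAPN10 lay below 0 at both probes. Its bright probe 2 had a mean of -0.19 (SD = 0.15, n = 3) and was lower in co-culture on all arrays except the Cy5 array of P114, where it read 0.11. CAPN10 probe 1 had a mean of -0.69 (SD = 0.71, n = 3), which rested on readings of -2.46 in P114 and -1.75 in CMT-U309, both with co-culture RNA in Cy3, and was -0.33 without P114. The remaining readings of that probe lay between -0.38 and 0.43.

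CAST, the inhibitor, was measured by 4 probes well above background in all channels. Probe 2 was higher in co-culture on 6 of 6 arrays, at 0.07 and 0.87 in P114, 0.14 and 0.48 in CMT-U27 and 0.16 and 0.44 in CMT-U309, with a mean of 0.36 (SD = 0.09, n = 3). In every line the array with co-culture RNA in Cy3 gave the larger value. CAST probe 1 had the same dye order, at 0.05 and 0.82, -0.18 and 0.04, and -0.39 and 0.58 in the same lines, with a mean of 0.15 (SD = 0.26, n = 3), or 0.01 without P114. By its coordinates probe 1 covers 41 bases, all within the 452 that probe 2 spans. These probes therefore do not read separate parts of the gene. Probes 3 and 4 stood at -0.07 (SD = 0.11) and 0.00 (SD = 0.09, both n = 3). The mean of the CAST probes was 0.27 for P114, 0.01 for CMT-U27 and 0.06 for CMT-U309.

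**Figure D3:**
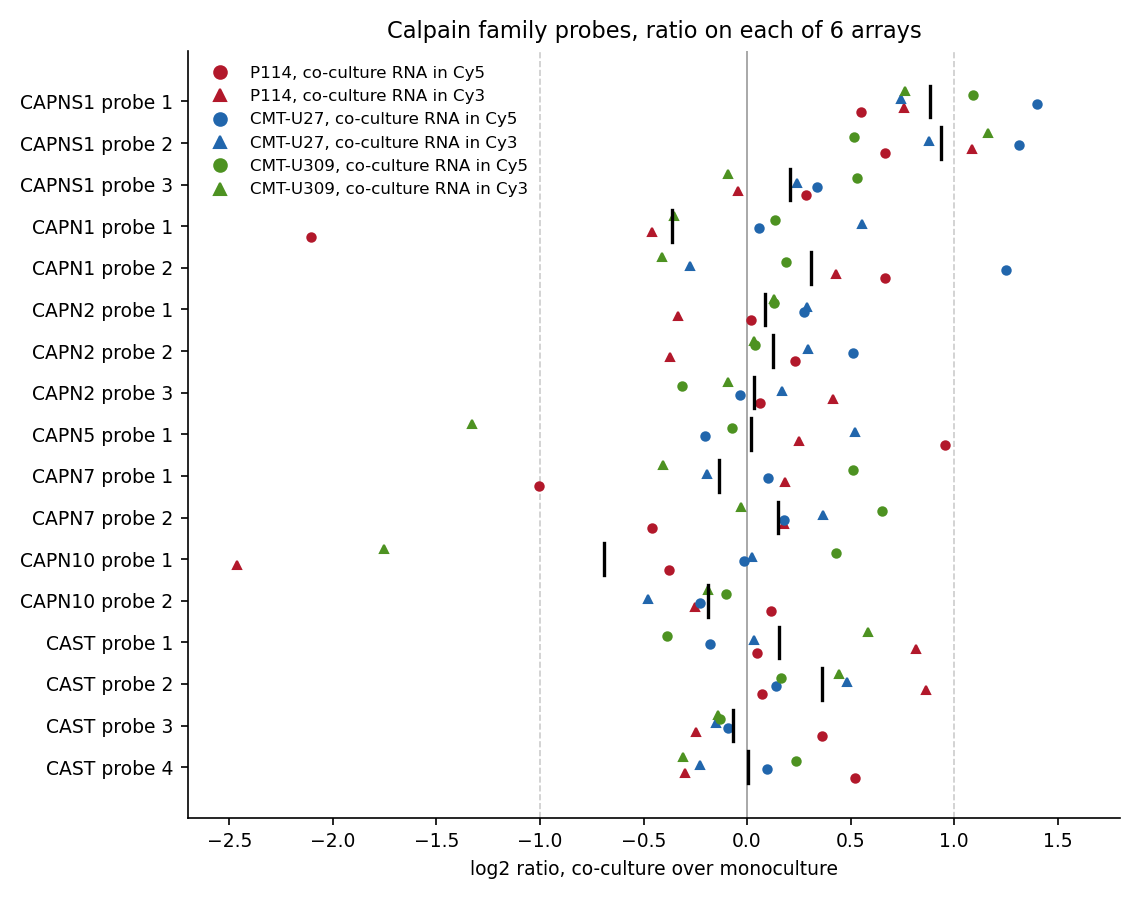
Log2 ratio of co-culture over monoculture of the 17 probes on each of 6 arrays. Colors stand for cell lines, circles for arrays with co-culture RNA in Cy5 and triangles for those with co-culture RNA in Cy3, black bars are means over the 3 lines, and dashed lines mark a 2-fold difference. CAPNS1 probes 1 and 2 and CAST probe 2 have all 6 points above 0, and the dim probes of CAPN1, CAPN5, CAPN7 and CAPN10 spread the most.

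The study's methods ask for a fold change over 2 and an unadjusted p under 0.05. By this rule 0 of the 17 probes were called, where 1.03% of the 40880 tested probes were called higher and 0.191% lower. Since the ratios were used to pick the group, nothing is read from this count. As a set, the members had a median log2 ratio of 0.09 against 0.01 over all tested probes, and 12 of 17 were above 0 against 51.5%. On all 6 arrays 3 of 17 were above 0 against 2.55% of tested probes (4.02% of those well above background in all channels), and 0 were below 0 against 1.71%. The 3 were CAST probe 2 and CAPNS1 probes 1 and 2, by whose rise the group was picked. Nothing is read from these shares either. No probe of the array passed an adjusted p of 0.05 (limma, Benjamini-Hochberg), while 4064 had an unadjusted p under 0.05. Without P114 the mean ratio of CAPNS1 was 1.00 at probe 1, 0.97 at probe 2 and 0.25 at probe 3.

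The levels of these genes in the lines were compared over 6 RNA samples, with the culture condition as a term in limma, so that the error is the spread of the co-culture ratio between lines. Each line lies on 1 slide, and line and slide cannot be told apart. At an adjusted p of 0.05 (F test over the 3 lines), 9 of 17 member probes differed, where 55.1% of all tested probes did. CAPNS1 was lowest in CMT-U27 at all 3 probes. The mean signal of probe 1 was 2718 in P114, 2595 in CMT-U309 and 1293 in CMT-U27, and that of probe 3 was 41178, 43175 and 22551. P114 exceeded CMT-U27 by 1.07 (SE 0.15, adjusted p = 0.00023, limma), 0.95 (SE 0.14, adjusted p = 0.000357) and 0.87 (SE 0.14, adjusted p = 0.000711) on the log2 scale at probes 1, 2 and 3. With eBayes run without a trend these adjusted p-values were 0.0162, 0.0178 and 0.0202 (limma). CMT-U309 exceeded CMT-U27 by a similar amount, with log2 differences of CMT-U27 minus CMT-U309 of -1.005, -0.87 and -0.94, whereas P114 and CMT-U309 did not differ beyond their spread (0.07, 0.09 and -0.07). Without CMT-U309 replicate 2 the difference of probe 2 was -0.50 (adjusted p = 0.0462, limma).

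Unlike the co-culture ratio, the difference between lines was thus of about the same size at all CAPNS1 probes. In the channels, probe 3 read 19152 to 27453 in CMT-U27 and 35932 to 51924 in the other lines, with no overlap. At probe 1 CMT-U27 did not overlap the other lines within a condition, while P114 and CMT-U309 overlapped each other. In monoculture CMT-U27 read 875 and 909 and the other lines at least 1487. In co-culture CMT-U27 read at most 2312 and the other lines at least 3173. At probe 2 CMT-U27 and CMT-U309 overlapped in co-culture, with 1799 and 1213 against 1709 and 3543. CAPNS1 was picked for ratios alike in all lines, which also keeps the error of this fit small at its probes. Its p-values are therefore not independent of the selection. In the monoculture channels alone, P114 exceeded CMT-U27 by 1.28, 1.06 and 0.95 on the log2 scale at the 3 probes. No p-value is given for them, since each line has 1 monoculture RNA.

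**Figure D4:**
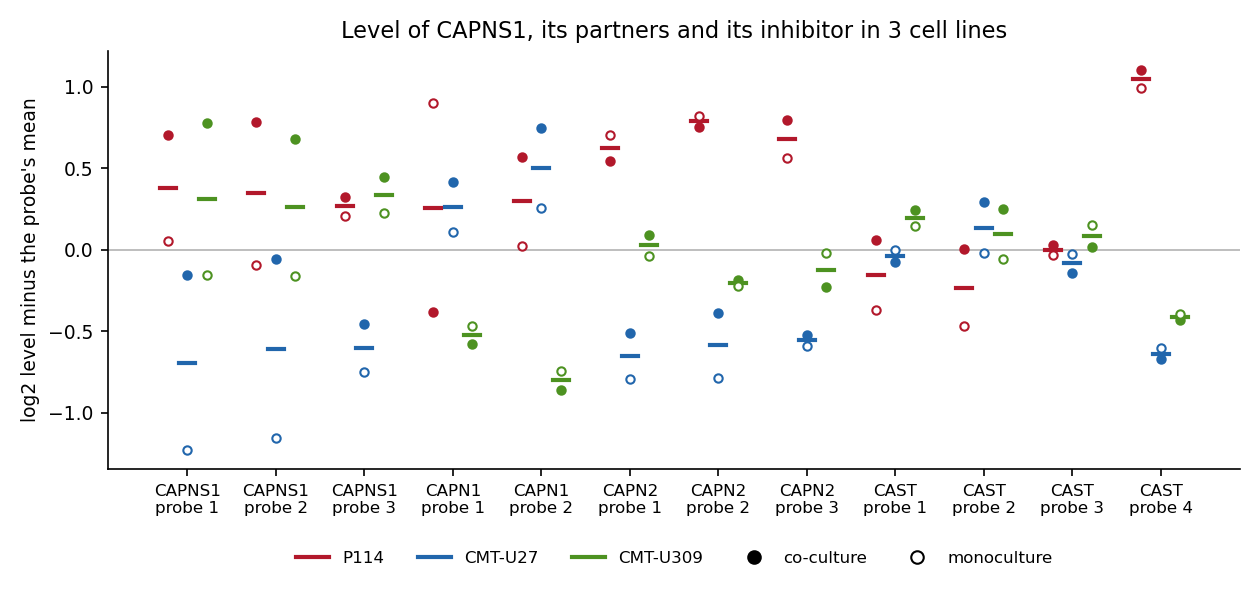
Log2 level of CAPNS1, CAPN1, CAPN2 and CAST probes in each cell line minus the probe's mean over the 6 RNA samples. Filled points are co-culture RNA, open points monoculture RNA (each the mean of 2 dye-swapped channels) and bars the mean of a line. CMT-U27 is lowest at all CAPNS1 and CAPN2 probes, CMT-U309 is lowest at CAPN1 probe 2, and among the CAST probes P114 stands far above the other lines at probe 4 only.

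CAPN2 had its highest level in P114 at all 3 probes. Its mean signals at probe 2 were 14223 in P114, 7172 in CMT-U309 and 5494 in CMT-U27. P114 exceeded CMT-U27 by 1.37 (SE 0.15, adjusted p = 5.3e-05, limma) and CMT-U309 by 0.99 (SE 0.15, adjusted p = 0.000866) at this probe. At probes 1 and 3 P114 exceeded CMT-U27 by 1.27 and 1.23, and CMT-U309 by 0.60 and 0.80 (adjusted p = 0.0128 and 0.00356, limma), but with normexp background correction the latter differences were 0.37 and 0.22 (adjusted p = 0.105 and 0.303). CMT-U27 and CMT-U309, neighbours in the order of CAPN2, differed at probe 1 by -0.68 (adjusted p = 0.00376, limma) and at probe 3 by -0.43 (adjusted p = 0.0454), and not past the threshold at probe 2 (-0.38, adjusted p = 0.0616). Without P114 replicate 1 the difference of P114 and CMT-U309 at probe 1 had an adjusted p of 0.0538, and that of probe 3 between CMT-U27 and CMT-U309 had 0.0546 to 0.172 (limma) when P114 replicate 1, CMT-U27 replicate 1 or either CMT-U309 replicate was left out. The latter was -0.99 with normexp.

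CAPN1 followed another order. At probe 2 its mean signal was 318 in CMT-U27, 276 in P114 and 129 in CMT-U309, and the value of CMT-U309 was below that of CMT-U27 by 1.30 (SE 0.20, adjusted p = 0.000423, limma) and below that of P114 by 1.099 (SE 0.20, adjusted p = 0.0025) on the log2 scale. With normexp these differences were smaller, at 0.71 and 0.66, and both passed the threshold. CMT-U27 and P114 did not differ beyond their spread there (adjusted p = 0.439). CAPN1 probe 1 read 87.3, 87.7 and 50.8 in P114, CMT-U27 and CMT-U309, and its F test did not pass (adjusted p = 0.105). CMT-U27, with the least CAPNS1 and CAPN2 signal of the 3 lines, thus had the most CAPN1 signal at probe 2.

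Of the CAST probes, only probe 4 differed between lines. The signal of this most 3′ probe was 923 for P114, 287 for CMT-U27 and 335 for CMT-U309. P114 exceeded the other lines by 1.69 (SE 0.15, adjusted p = 1.2e-05, limma) and 1.46 (SE 0.15, adjusted p = 6.5e-05). Its neighbour, CAST probe 3, lies upstream in the same transcript and read 3771, 3566 and 4012 (adjusted p of the F test = 0.526). Probes 1 and 2 did not pass either (adjusted p = 0.208 and 0.0715). The line difference was therefore seen at 1 of 4 probes of the gene. CAPN7 was higher in CMT-U27 than in CMT-U309 at probe 1 by 0.75 (SE 0.21, adjusted p = 0.0135, limma) and not past the threshold at probe 2 (0.25, adjusted p = 0.303). The adjusted p at CAPN7 probe 1 was 0.056 to 0.1 (limma) when replicate 2 of any line was left out, and the difference was 0.37 with normexp. CAPN5 and CAPN10 did not pass at any probe.

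In the pairwise comparisons, P114 minus CMT-U27 called 7 member probes higher and 0 lower (19.7% and 21.6% of all probes), P114 minus CMT-U309 called 5 higher and 0 lower (18.0% and 11.7%), and CMT-U27 minus CMT-U309 called 2 higher and 5 lower (27.1% and 19.6%). The probes higher in P114 than in CMT-U27 were those of CAPNS1 and CAPN2 and CAST probe 4.

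Other calpains were mostly dim. Of 11 symbols, 5 had a probe, and of their 8 probes 2, both of SOLH, were well above background in all channels. The median log2 ratio of the 7 tested probes was 0.39, with 4 above 0, 1 called higher and 0 lower. Over all tested probes the median was 0.01, with 51.5% above 0, 1.03% called higher and 0.191% lower. Nothing is read from so few probes. The probe called was that of CAPN13, which is on the study's own list and so no independent evidence. It read -1.14 and 0.92 in P114, 1.63 and 0.37 in CMT-U27 and 4.98 and 0.86 in CMT-U309. Of the CAPN13 signals 1 of 6 in co-culture and 0 of 6 in monoculture passed the background flag. A bound on its ratio came to 1.07-fold higher in co-culture. The co-culture mean in it rests mostly on signals that did not pass the flag, so no rise is read from it. CAPNS2, an intronless relative of CAPNS1, was well above background in 4 of 12 channels.

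Relatives of CAPNS1 and substrates of the calpains were read the same way. The penta-EF-hand proteins PDCD6, SRI and GCA, which share the calcium-binding fold of CAPNS1, had ratios of -0.15 to 0.27 with 1 of 3 above 0 and none called, and 0 of them were above 0 on all arrays. Known calpain substrates, among them talin, filamin, spectrin and focal adhesion kinase, had 45 probes for 21 of 24 genes. Of these, 33 were above 0 against 51.5% of all tested probes, their median log2 ratio was 0.07 against 0.01, with a range of -0.27 to 0.79, and 0 were called in either direction. For both lists the shares called over all tested probes were 1.03% higher and 0.191% lower. On all 6 arrays 5 of the 45 were above 0, against 2.55% of tested probes. Of the 45, 38 were well above background in all channels, and among all such probes the share was 4.02%. These were a probe each of EGFR, PTPN1, CTNNB1, SPTAN1 and MARCKS, named after their values were seen, with mean log2 ratios of 0.75, 0.30, 0.34, 0.44 and 0.22. Other probes of these genes went both ways. They read 0.35 to 0.46 for EGFR, -0.14 to 0.34 for CTNNB1, -0.11 to 0.51 for SPTAN1 and -0.02 for MARCKS.

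The genes whose 6 array ratios lay closest to the mean of the CAPNS1 probes (0.68, SD = 0.14, n = 3), among 7703 genes with a probe well above background in all channels, were NRM, C18H11orf2, CDK20, SP1 and PFKL, with root mean square differences of 0.21, 0.21, 0.22, 0.22 and 0.22 on the log2 scale. NRM is a protein of the nuclear envelope, SP1 a transcription factor and PFKL a glycolytic enzyme, and their mean log2 ratios were 0.52, 0.59 and 0.64. By level over the 6 RNA samples, DLK2, ATPAF2, C17H2orf89, ELF4 and NCBP1 were most like it, with Pearson correlations from 0.98 to 1.00. These 6 samples share arrays and cell lines, so the values describe these samples only.

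Markers of myeloid cells, the class to which MDSCs belong, were read in the tumor cell RNA. Of 19 myeloid genes 16 had a probe, and 13 of them were well above background in at least 1 channel. ITGAM, which encodes the CD11b by which MDSCs are recognized, was well above background in 0 of 12 channels, as were LYZ and SPI1. CD33, another such marker, was among the listed genes without a probe of that name. ITGB2 and CYBB, named after their values were seen, were well above background in 12 and 11 channels, with mean log2 ratios of 0.06 and -0.12, and the 3 probes of ARG1 in 8 to 12 channels, with ratios of -0.32 to -0.04. Of 23 tested myeloid probes 1 was called higher in co-culture and 0 lower, with a median of 0.09. Over all tested probes 1.03% were called higher and 0.191% lower, with a median of 0.01. The called probe is one of LAPTM5, a lysosomal membrane protein of blood cells, with a mean of 1.08 and higher on 5 of 6 arrays, but well above background in 0 of 12 channels. Another LAPTM5 probe stood at -0.31. The summed myeloid signal was 910 to 923 in co-culture and 848 to 1128 in monoculture of P114, and 1385 to 1550 and 1375 to 1413 in CMT-U309. In CMT-U27 it was 13328 to 13874 in co-culture against 7692 to 8221 in monoculture. Most of it came from S100A8, a gene of both myeloid and epithelial cells, with log2 ratios of 0.89 and 0.82 on the CMT-U27 arrays. The S100A9 probes were higher there as well, at 0.84 and 0.76 and at 0.59 and 0.80. Lymphoid markers summed to 114.1 to 189.2 in co-culture and 139 to 203 in monoculture. The part of MDSC RNA in the CAPNS1 ratio was not tested.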

How the data were processed

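Gene expression was measured in 3 canine mammary tumor lines on 6 two-color arrays. Scanner files of the Feature Extraction software were deposited (version 10.10.1.1 in the file headers, 10.7.3.1 in the submitters' processing notes). The authors' files give a processed signal intensity per dye that is background-subtracted and dye-normalized. The deposited table of log10 ratios holds the same ratios turned to co-culture over monoculture. Flags for outlier, saturated and background spots, also deposited, are other values. No deposited column was left without a sample.

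Channels were scaled to a common median, control and outlier spots were dropped, and, as in the methods, a probe was removed where its intensity never passed 10. Log2 ratios were averaged over spots and over the dye-swap. limma 3.58.1 in R 4.3.3 (lmFit, eBayes with trend) tested the mean of 3 lines against 0 and the levels over 6 RNA samples with condition as a term, with Benjamini-Hochberg adjustment over 40880 probes. Python 3.11.15 and matplotlib 3.10.9 were used for tables and plots.

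Samples were grouped by the line in their titles. The replicate number marks the dye of the co-culture RNA. Deviations of same-numbered arrays from the line mean correlated at 0.36, 0.58 and 0.48 between lines, so the number pairs arrays by dye. Replicates are not stated to be separate cultures, so p-values measure the spread between these samples, and the number of arrays limits precision.

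The members and gene lists were chosen with earlier results of these data known. All member probes are named, as are CAPN13, list genes past the call, and the 5 genes most like CAPNS1 by ratio and by level. A bound divides the brighter condition's mean by the dim condition's, where each dim array counts at least as its lowest signal well above background (loess and Aquantile normalization).

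The tests were checked on simulated data. Alternatives were normexp (offset 50) with loess, the deposited ratios, no scaling, other filters, 1 dye orientation, other tests and each line or array left out.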

Additional observations from a re-analysis of the deposited data

Results flagged for a closer look

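At 3 probes every array of 1 line lay above 0 and every array of another below it. CAPN1 probe 1 was higher in co-culture in CMT-U27 and lower in P114, a difference of 1.59 between their mean log2 ratios. CAPN5 was higher in P114 and lower in CMT-U309, with a difference of 1.30 at a dim probe. CAPN2 probe 3 was higher in P114 and lower in CMT-U309, with a difference of 0.44. A line has 2 arrays of the same RNA, and these differences were not tested. The share of all probes with such a pattern was not counted, so nothing is read from the number of member probes.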

How the results depend on the processing

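Over all probes, 499 passed the thresholds of the methods, against 3 with normexp and loess, 25 among probes well above background in all channels, 118 with the methods' t-test and 5604 where only arrays with Cy3-labelled co-culture RNA (Cy3 arrays) were used. Leaving out a line or an array gave 107 to 2678 probes. After adjustment 0 passed, against 2925 on the Cy3 arrays, 5 over 6 arrays without a block and 0 to 6366 with a line or array left out, the latter without P114. With the replicate number as a replicate block, 542 and 6 probes passed, and CAPNS1 stood at 0.68 with and without the block, since the pairing does not move a mean over balanced dyes.

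The mean log2 ratio over the CAPNS1 probes lay between 0.57 and 0.74 under the alternatives and between 0.61 and 0.74 with a line or array left out. Under the alternatives probe 1 ran from 0.74 to 1.01 and probe 2 from 0.75 to 1.04. Probe 3 depended more on the dye, at 0.03 on the Cy3 arrays alone and 0.38 on the Cy5 arrays alone. The median over the probes of the other calpains and CAST was 0.027, and -0.085 on the Cy3 arrays alone. For the levels, the alternatives included fits on channels, among them the monoculture channels alone. Such fits count dye-swapped channels of 1 RNA as separate samples. Of 19 level differences called at member probes, 15 stayed past the threshold under every alternative run and none turned direction. The others were those of CAPN2 probe 1 (P114 minus CMT-U309), CAPN2 probe 3 (both with CMT-U309) and CAPN7 probe 1. The causes were not tested. Low signal limits the ratios of CAPN5 and CAPN13, which were well above background in 8 and 1 of 12 channels.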
